A study of Homo sapiens with 12 samples.

Results

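The effect of microRNA-28 (miR-28) on polyadenylated RNA was examined in 3 pairs of libraries from Ramos, a B cell line derived from a human Burkitt lymphoma. Both arms carried pTRIPZ, a lentiviral vector that doxycycline switches on, holding either miR-28 or a scrambled sequence. All cells had been selected with 0.4 µg/ml puromycin, were given 0.5 µg/ml doxycycline for 2 days and were sorted for the red fluorescent protein of the vector. The scramble cells therefore share the vector, the selection and the drug. The series holds 12 libraries in 6 sample pairs, and 6 libraries in 3 pairs, numbered 1, 2 and 5, are described here. The labels place pairs 1 and 2 in library batch 1 and pair 5 in batch 2. Pairs 1 and 5 are labelled XENO 1 and pair 2 is labelled XENO 2, a word whose meaning is not stated. Pairs 1 and 5 may thus share cells, and nothing states that any pair is an independent culture, so p-values measure the spread among these libraries, which may be technical.

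The pairs were selected on measured values: they lie together on the first principal component of all 12 libraries, which took 67.6% of the variance. Their scramble libraries scored -37.5, -31.2 and -50.5 and their miR-28 libraries -37.1, -35.8 and -51.3 in the order of pairs 1, 2 and 5. The miR-28 library differed from its partner by 0.4, -4.7 and -0.8 units there, against -29, 7 and -22.4 in pairs 3, 4 and 6. These values chose the pairs and are a description. A gene was called alike when its mean over the 6 libraries was 5 or more and log2(value + 1) differed by at least 0.322, so that the larger value + 1 was 25% or more above the smaller, in the same direction in each of the 3 pairs. Values are read counts scaled to library size and between libraries, written CPM below. Of 10083 genes with that mean, out of 12725 in the table, 14 were lower alike (0.139%) and 1 was higher alike (0.00992%).

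**Figure D1:**
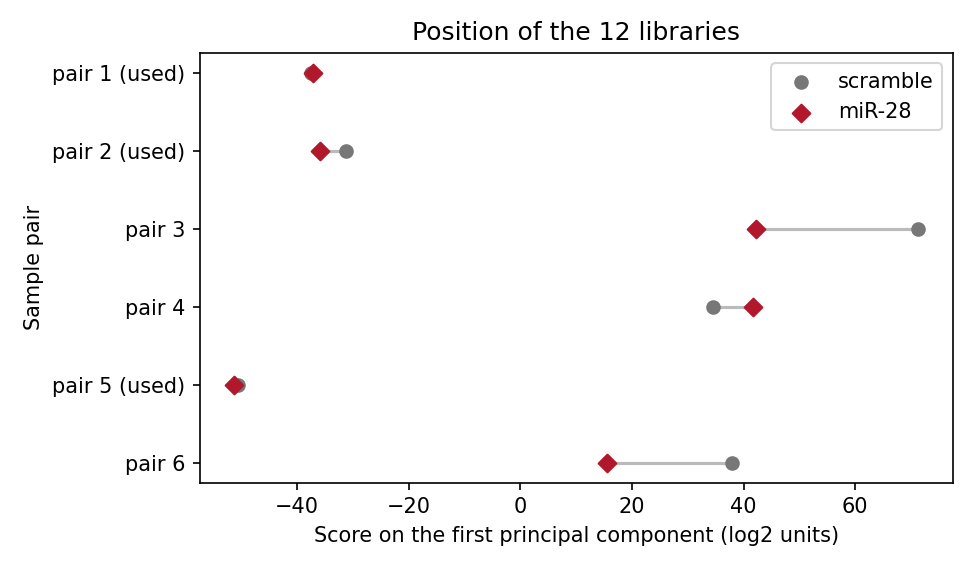
Score of each library on the first principal component of log2(value + 1), in log2 units, with a line joining the scramble library (circle) and the miR-28 library (diamond) of each pair. The libraries of pairs 1, 2 and 5 lie between -51.3 and -31.2, and the partners of these pairs lie close to each other.

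MicroRNAs are short RNAs that guide a silencing complex to messenger RNAs, most often through bases near the 5′ end of the microRNA, the seed, which pair with a matching site in the 3′ untranslated region (3′ UTR). A targeted messenger is translated less and often decays faster, so its level in an RNA library can be lower. The miR-28 hairpin lies in an intron of LPP and yields mature RNAs from both arms, miR-28-5p and miR-28-3p. miR-28 is expressed in germinal centre B cells and has been described as lost in B cell lymphomas. The mature RNA of the 5p arm is not shown. That of the 3p arm is given by RefSeq on GRCh38.p14 at chr3:188688834-188688855 on the plus strand. It is shown with its seed, bases 2 to 8, in capitals, since the 3p sites below are matched to it.
hsa-miR-28-3p: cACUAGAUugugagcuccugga

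Sites were searched in the sense strand of the longest annotated 3′ UTR of each gene as AGCTCCT for the 5p arm and ATCTAGT for the 3p arm. A shorter class, 7mer-A1, has the last 6 of those letters followed by A. The windows below are the sites of the alike genes on which the results turn, 5′ to 3′ on the messenger strand on GRCh38, with the site in capitals. SPCS3 holds a shorter site of each arm, at chr4:176332111-176332140 and chr4:176332028-176332057 (plus strand). ATPAF1, at chr1:46632832-46632861 (minus strand), TMEM170A, at chr16:75447382-75447411 (minus), and KIF3C, at chr2:25927062-25927091 (minus), hold a 5p site, as does KMT2A, the gene that was higher, at chr11:118523901-118523930 (plus). NFE2L2, at chr2:177232854-177232883 (minus), and TRMT2B, at chrX:101009369-101009398 (minus), hold a 3p site.
SPCS3 5p: agagactgtatGCTCCTAtactagactgta
SPCS3 3p: aagaaaccaagTCTAGTAggttttttcttt
ATPAF1 5p: actagactgtgAGCTCCTtgagggccagga
TMEM170A 5p: cttcattttgaAGCTCCTagaattgaagac
KIF3C 5p: gtcggaggaggAGCTCCTgcctgcggtttt
KMT2A 5p: tcccctattgaAGCTCCTcaaaaggctaca
NFE2L2 3p: aaatctgttttATCTAGTaccactgtgcta
TRMT2B 3p: aaagctccaaaATCTAGTataacataataa

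The vector insert was checked first. MIR28, the gene of the hairpin, had 0 reads in each of the 3 scramble libraries and 47, 62 and 19 reads in the miR-28 libraries of pairs 1, 2 and 5. With 3 reads taken as the floor for the scramble group as one, MIR28 was at least 47.8-fold higher, by counting error alone. The mature microRNA is not captured in such libraries, and vector and genomic reads of the hairpin cannot be told apart. The 6 libraries held 21160043 to 37876636 reads over the table's genes. All 12 listed B cell identity genes were measured, and their summed level was 9575 to 10159 CPM in scramble and 9242 to 10616 CPM in miR-28 libraries. Of 13 T and NK cell markers 5 were measured (TRBC2, TRAC, CD28, IL7R and ZAP70), and their sum was 70.3 to 142 CPM in scramble and 100.1 to 170 CPM in miR-28 libraries. That sum was higher with miR-28 in each pair, by 27.9, 9.93 and 29.8 CPM. Of the 5 markers 1, TRBC2, was higher in every pair, with log2 differences of 0.57, 0.09 and 0.50. The median log2 difference of the 5 was -0.19, 0.09 and 0.35 in pairs 1, 2 and 5, so the markers did not move together. The part of the sum in the results below was not tested. Of 8 stromal and endothelial markers PECAM1 was measured, at 2.39 CPM or less, and of 8 myeloid and 6 epithelial markers 0 were.

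Differences within the pairs were small across the transcriptome. The SD over genes of the log2 difference was 0.179, 0.200 and 0.173 in pairs 1, 2 and 5, and 5.82%, 9.12% and 5.11% of genes passed the limit of 25%. In pairs 3, 4 and 6 these SDs were 0.547, 0.247 and 0.353. Pairs 1, 2 and 5 were chosen because their libraries lie together on the first principal component. That choice favours small differences within them, so these SDs are a description only. The differences of the whole transcriptome were not alike among the 3 pairs: across genes, those of pairs 1 and 2 correlated by -0.24, those of pairs 1 and 5 by 0.21 and those of pairs 2 and 5 by -0.04. Each correlation is across 10083 genes measured in the same 2 pairs of libraries, and genes are not independent. The genes that differed alike are described by role.

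SPCS3, of the secretory pathway, fell in all 3 pairs and was the 1 gene to pass the test. It encodes a subunit of the signal peptidase complex, which cuts the signal sequence from proteins as they enter the endoplasmic reticulum. SPCS3 (ENSG00000129128, chr4:176319964-176332245, plus strand) measured 410, 494 and 558 CPM in the scramble libraries and 232, 265 and 254 CPM in the miR-28 libraries of pairs 1, 2 and 5. Every miR-28 library lay below every scramble library, a separation that 1.77% of genes showed. The paired log2 difference was -0.95 with an SE of 0.0714, a fold of 1.93, and the limma adjusted p was 0.0152. At an adjusted p under 0.05, 0.00786% of the 12725 genes tested were thus called lower, and 0% higher. At an unadjusted p under 0.05 limma gave 546 genes, 4.29% of the total, of which 368 were lower (2.89%) and 178 higher (1.40%). The error rests on 2 residual degrees of freedom and on the spread shared over all genes. The pair as a block also absorbs the library batch, and batch 2 holds pair 5 alone, whose difference of -1.13 stands beside -0.82 and -0.90 in batch 1. In such bulk RNA, fewer cells of a kind and less RNA per cell cannot be told apart. The call was lost without the pair as a block, where the adjusted p was 0.356, and with the error taken from all 12 libraries, where it was 0.106.

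The other measured subunits of the complex did not share the difference. SPCS1, SPCS2, SEC11A and SEC11C had log2 differences of 0.03, -0.06, -0.04 and -0.11, none of which passed the test, and their signs were mixed among the 3 pairs. Of 19 genes of translocation into the endoplasmic reticulum, 0 passed, 0 were lower in every pair and 1 was higher in every pair. EDEM1, which helps to send misfolded glycoproteins to degradation, measured 327, 460 and 332 CPM in scramble and 263, 263 and 236 CPM in miR-28 libraries. Its groups did not overlap, its log2 difference was -0.53 ± 0.0893 (SE, n = 3 pairs) and its limma adjusted p was 0.385. The smallest pair difference of EDEM1, 0.313, missed the limit of 0.322. DERL3, another gene of that degradation route, measured 34.9, 28.2 and 43.0 CPM in scramble and 26.9, 26.2 and 30.1 CPM in miR-28 libraries, with overlapping groups. Of 28 genes of the unfolded protein response, 0 passed and 3 were lower in every pair, while 11.9% of all genes were lower and 11.1% higher in every pair.

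NFE2L2 encodes NRF2, the transcription factor that turns on genes of the response to oxidative stress. It measured 123, 125 and 99.7 CPM in scramble and 91.8, 85.4 and 60.7 CPM in miR-28 libraries. The groups did not overlap, and the miR-28 library was lower by 0.41, 0.55 and 0.71 on the log2 scale in pairs 1, 2 and 5. The paired log2 difference was -0.56 with an SE of 0.0702, and the limma adjusted p of 0.167 missed the threshold. Without pair 1 that adjusted p was 3.00e-08, without pair 2 it was 0.0304 and without pair 5 it was 0.467. Of 17 measured NRF2 target genes 0 passed, 4 were lower in every pair (SRXN1, TXN, NQO1 and GCLC), beside 11.9% of all genes, and 1 was higher (ABCC1), beside 11.1%. SRXN1, which repairs peroxiredoxins, had a log2 difference of -0.16, and TXN, the reductant thioredoxin, one of -0.11. The list's median was -0.06, beside 0.00 for all genes. Of 8 regulators of NRF2 measured, NFE2L2's small partner MAFG had a log2 difference of -0.21, and 0 passed.

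**Figure D2:**
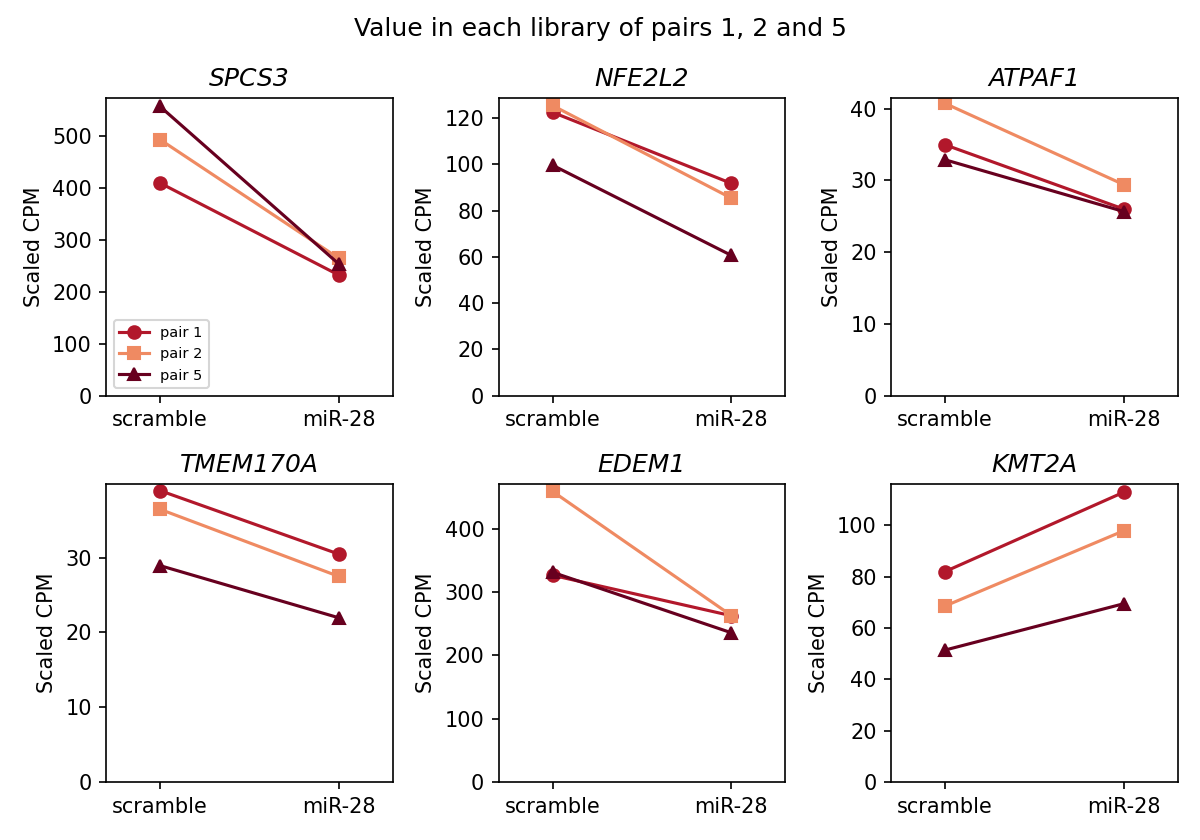
Value in CPM of 6 genes in each of the 6 libraries, with a line joining the scramble and the miR-28 library of each pair and an axis from 0. SPCS3, NFE2L2, ATPAF1 and EDEM1 separate the groups, while TMEM170A and KMT2A change by a like amount from different starting levels.

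ATPAF1 and 12 of 13 mitochondrially encoded genes were lower in every pair, and none passed the adjusted test. ATPAF1, an assembly factor of the ATP synthase, measured 35.0, 40.7 and 32.9 CPM in scramble and 26.01, 29.4 and 25.7 CPM in miR-28 libraries. Its groups did not overlap, and the paired log2 difference was -0.41 ± 0.0738 (SE, n = 3 pairs) with a limma adjusted p of 0.397. The 4 other assembly factors measured, TMEM70, ATPAF2, FMC1 and TMEM242, had log2 differences of 0.08, -0.06, -0.06 and 0.04 and none passed. MT-ATP6, a subunit of the synthase encoded in the mitochondrial genome, measured 2369, 2915 and 1837 CPM in scramble and 1889, 2148 and 1366 CPM in miR-28 libraries. These groups overlapped, as the scramble library of pair 5 lay below the miR-28 libraries of pairs 1 and 2. MT-ATP6 lay just inside the limit for an alike gene, with a smallest pair difference of 0.327, and AFAP1L2, at 0.318, lay just outside.

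Of the 13 protein-coding genes of the mitochondrial genome, 12 were lower in every pair, beside 11.9% of all genes, 13 had a mean difference below 0, and 0 passed the adjusted test. At an unadjusted p under 0.05 limma gave 11 of them as lower, beside 2.89% of all genes. Their median log2 difference was -0.35 over the 3 pairs, and -0.28, -0.35 and -0.38 in pairs 1, 2 and 5. MT-ATP8, which like MT-ATP6 encodes a subunit of the ATP synthase, had a log2 difference of -0.41, and MT-ND4L, a subunit of complex I, one of -0.35. MT-ND3, a complex I subunit, was the exception, with -0.28, -0.38 and 0.11 in the 3 pairs. These genes took 1.74%, 2.30% and 1.48% of reads in scramble and 1.39%, 1.81% and 1.14% in miR-28 libraries. The 13 genes are cut from shared precursor transcripts and are not independent of each other. Reads may also be shared with nuclear copies such as MTATP6P1, which had a log2 difference of -0.38.

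**Figure D3:**
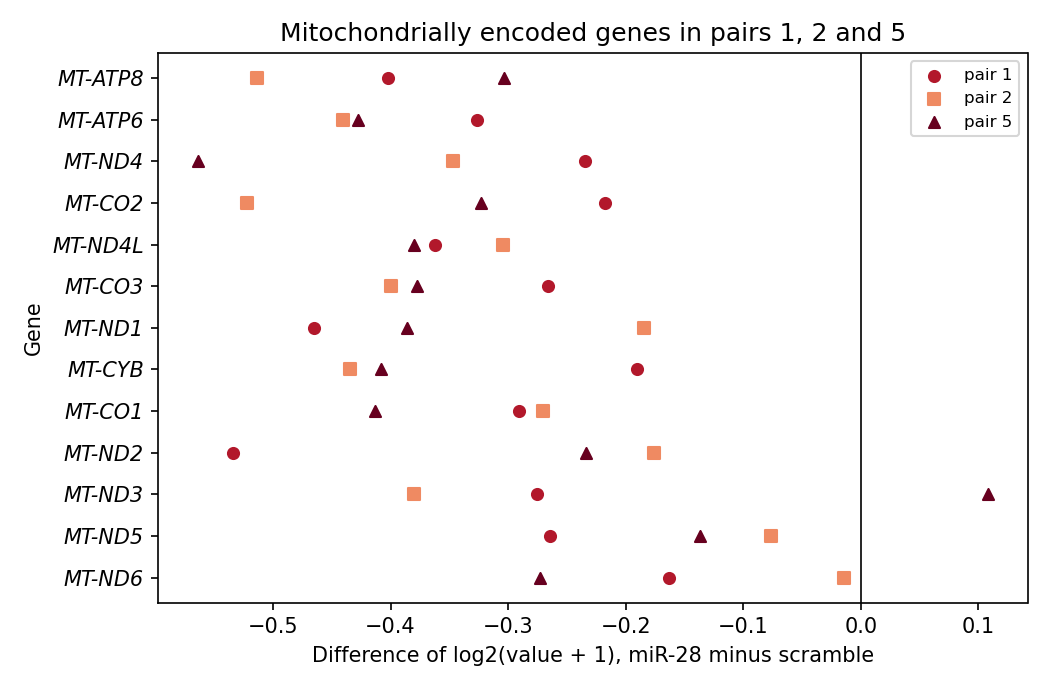
Difference of log2(value + 1), miR-28 minus scramble, of the 13 protein-coding genes of the mitochondrial genome, with a point for each of pairs 1, 2 and 5. All points but that of MT-ND3 in pair 5 lie below 0.

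Several alike genes act in the cytoskeleton, at membranes or in signalling. KIF3C, a kinesin motor subunit, measured 8.47, 11.7 and 12.9 CPM in scramble and 5.86, 7.51 and 8.23 CPM in miR-28 libraries, and the groups did not overlap. TMEM170A, a membrane protein, measured 38.9, 36.5 and 28.9 CPM in scramble and 30.5, 27.5 and 21.9 CPM in miR-28 libraries, with overlapping groups. Its pair differences were -0.34, -0.40 and -0.38. PLEKHB1, a membrane-associated protein with a pleckstrin homology domain, had pair differences of -0.57, -0.50 and -0.33 at a mean of 6.89 CPM in scramble libraries.

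A further group was lower in every pair but by unequal amounts. LGALS9, the lectin galectin-9, measured 9.88, 1.94 and 8.53 CPM in scramble and 3.60, 1.10 and 5.85 CPM in miR-28 libraries. SORBS3, an adaptor of cell adhesion sites, measured 14.2, 2.46 and 7.86 CPM in scramble and 4.83, 1.49 and 3.31 CPM in miR-28 libraries. In both genes pair 2, the XENO 2 pair, was low in both arms, and the groups overlapped. S100A10, the partner of annexin A2, had pair differences of -0.82, -0.41 and -0.66, and CCDC50, a ubiquitin-binding protein, of -1.04, -0.37 and -0.73. LGALS9 differed by -1.24, -0.49 and -0.48, so pair 5, of XENO 1, fell no more than pair 2. These 4 genes were grouped after their values were seen. In the order LGALS9, SORBS3, S100A10 and CCDC50, they had differences of -1.49, -1.04, -0.93 and -1.0 in pair 4, the third XENO 1 pair. In pair 6, the other XENO 2 pair, these were 0.33, 0.02, -0.16 and -0.55. In pair 3, which has no XENO label, they were -0.21, -0.09, 0.22 and 0.33. The difference between XENO 1 and XENO 2 was not tested. The limma adjusted p was 0.619, 0.397, 0.385 and 0.503 for LGALS9, SORBS3, S100A10 and CCDC50.

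TRMT2B, UNKL and SLX1B closed the list of genes lower alike. TRMT2B, a tRNA methyltransferase, measured 32.5, 30.5 and 36.4 CPM in scramble and 23.8, 23.3 and 27.0 CPM in miR-28 libraries, without overlap. UNKL, a zinc finger protein, had pair differences of -0.41, -0.37 and -0.36, at 16.7 ± 3.31 CPM in scramble and 12.6 ± 2.38 CPM in miR-28 libraries (SD, n = 3). SLX1B, a subunit of a structure-specific endonuclease, had differences of -0.63, -0.98 and -0.38. It has a near-identical copy, SLX1A, so that its count is uncertain. Of the 14 genes lower alike, 6 had groups that did not overlap, SPCS3, KIF3C, NFE2L2, SLX1B, TRMT2B and ATPAF1, beside 1.77% of the 10083 genes. The alike rule used the same libraries, so nothing is read from this count.

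KMT2A, a histone methyltransferase that marks active promoters, was the gene that was higher alike. KMT2A (ENSG00000118058, chr11:118436464-118526832, plus strand) measured 82.0, 68.6 and 51.4 CPM in scramble and 113, 98.0 and 69.5 CPM in miR-28 libraries. The groups overlapped, because the scramble library of pair 1 lay above the miR-28 library of pair 5. The paired log2 difference was 0.46 with an SE of 0.0585, and the limma adjusted p was 0.167. The longest transcript of KMT2A has 16628 bases, and long transcripts were frequent among genes that were higher. Of 144 genes higher at an unadjusted p under 0.05 with a mean of 5 or more and a known length, 37.5% had a longest transcript over 8000 bases, against 8.57% of all 10038 such genes and 4.38% of 251 that were lower. The rank correlation of the difference with length across genes was -0.21 in pair 1, 0.28 in pair 2 and -0.01 in pair 5, so the sign of this relation was not shared by the pairs. In pairs 3, 4 and 6 KMT2A differed by -0.29, 0.09 and -0.08.

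The same measure in libraries that the choice of genes did not use came from pairs 3, 4 and 6. Limma gave 0 genes at an adjusted p under 0.05 there, with a smallest adjusted p of 0.271, and 1874 genes at an unadjusted p under 0.05. Of the 14 genes lower alike, 11 had a mean difference below 0 in these pairs. The share of all genes with such a mean was not counted, so nothing is read from that number. In every one of these pairs 6 of the 14 were lower: SPCS3, NFE2L2, UNKL, ATPAF1, TMEM170A and MT-ATP6. Of the 10083 genes with a mean of 5 or more, 20.8% were. SPCS3, NFE2L2 and ATPAF1 were lower by 0.322 or more in every one of pairs 3, 4 and 6. Of the 10083 genes, 0.893% were. At an unadjusted p under 0.05, 5 were lower: SPCS3 at 0.000217, NFE2L2 at 0.00126, ATPAF1 at 0.00887, TMEM170A at 0.0227 and MT-ATP6 at 0.0342. The share of all genes that were lower at that threshold was 6.82%. SPCS3 had a log2 difference of -0.80 there, NFE2L2 of -0.57 and ATPAF1 of -0.51. By contrast KIF3C had 1.35, -0.40 and 0.81 and PLEKHB1 0.87, -0.71 and 0.16 in pairs 3, 4 and 6, and SLX1B was higher in each of them.

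**Figure D4:**
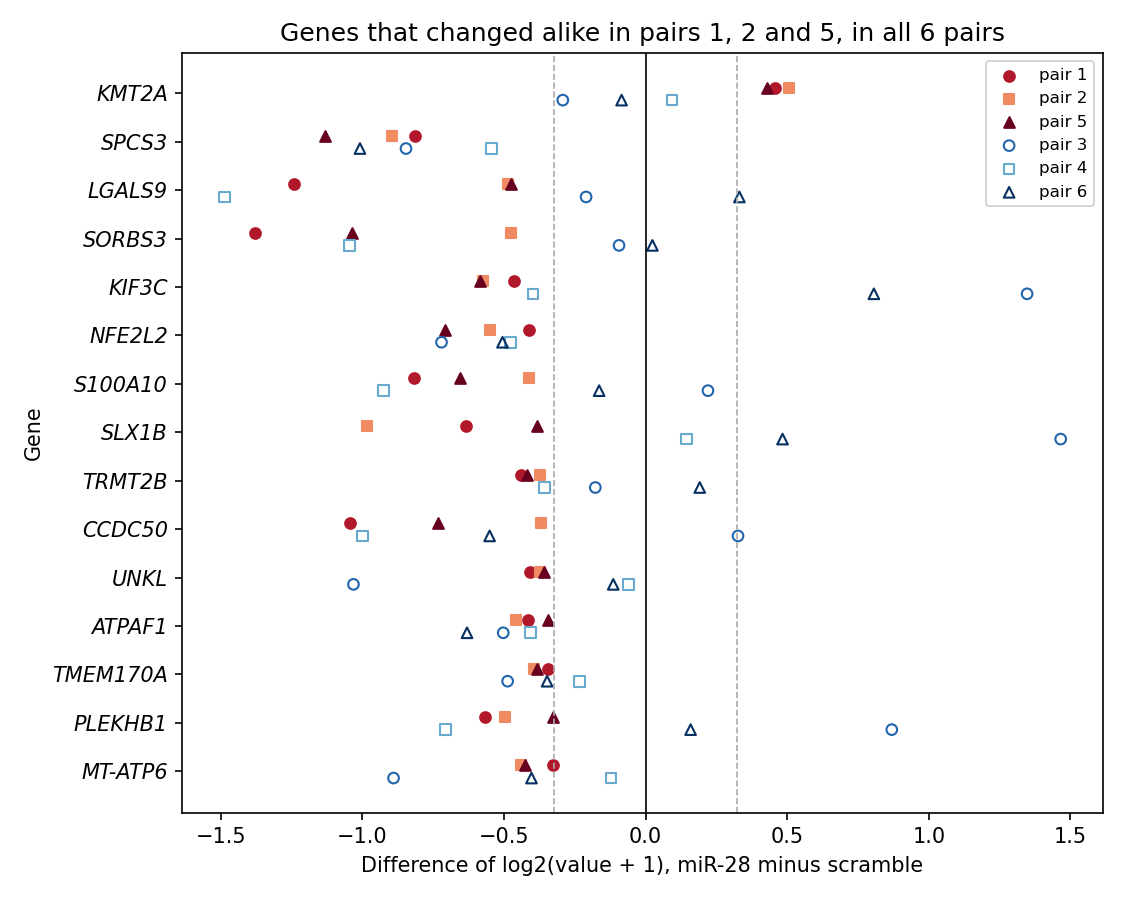
Difference of log2(value + 1), miR-28 minus scramble, of the 15 genes alike, with filled points for pairs 1, 2 and 5, which chose them, and open points for pairs 3, 4 and 6. Dashed lines mark the limit of 0.322. The open points of SPCS3, NFE2L2 and ATPAF1 lie beyond the line in every pair, while those of KIF3C, SLX1B and PLEKHB1 spread to both sides or to the opposite one.

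Seed sites were a feature that the choice of genes did not use. Of the 13 genes lower alike with an annotated 3′ UTR, 6 held the 5p site (46.2%), against 1475 of all 9399 genes (15.7%), and 3 held the 3p site (23.1%), against 774 (8.23%). Their median 3′ UTR was 1235 bases, and that of all genes 1403. The shares depended on the limit: at 1.2-fold in each pair, 7 of 22 such genes held the 5p site (31.8%). The 3p site was held by 3 of those 22 (13.6%). The 6 genes with the 5p site were ATPAF1, TMEM170A, KIF3C, CCDC50, PLEKHB1 and UNKL. Their 3′ UTRs had 3039, 4504, 2382, 6910, 1217 and 3035 bases, so all but that of PLEKHB1 were longer than the median of all genes. The shares were not matched for 3′ UTR length. In pairs 3, 4 and 6, ATPAF1, TMEM170A and UNKL were lower in every pair, while KIF3C, CCDC50 and PLEKHB1 had mixed signs. SPCS3 held the shorter class of both arms only, and LGALS9, S100A10, SLX1B and SORBS3 held none of these letters in that window. Of 931 genes lower in every pair 23.2% held the 5p site, and of 1154 higher in every pair 16.3% did. Conversely, 14.6% of genes with a 5p site and 8.85% of genes with neither site were lower in every pair. The median log2 difference was 0.00 for all genes with a 5p site and 0.01 for genes with neither site.

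**Figure D5:**
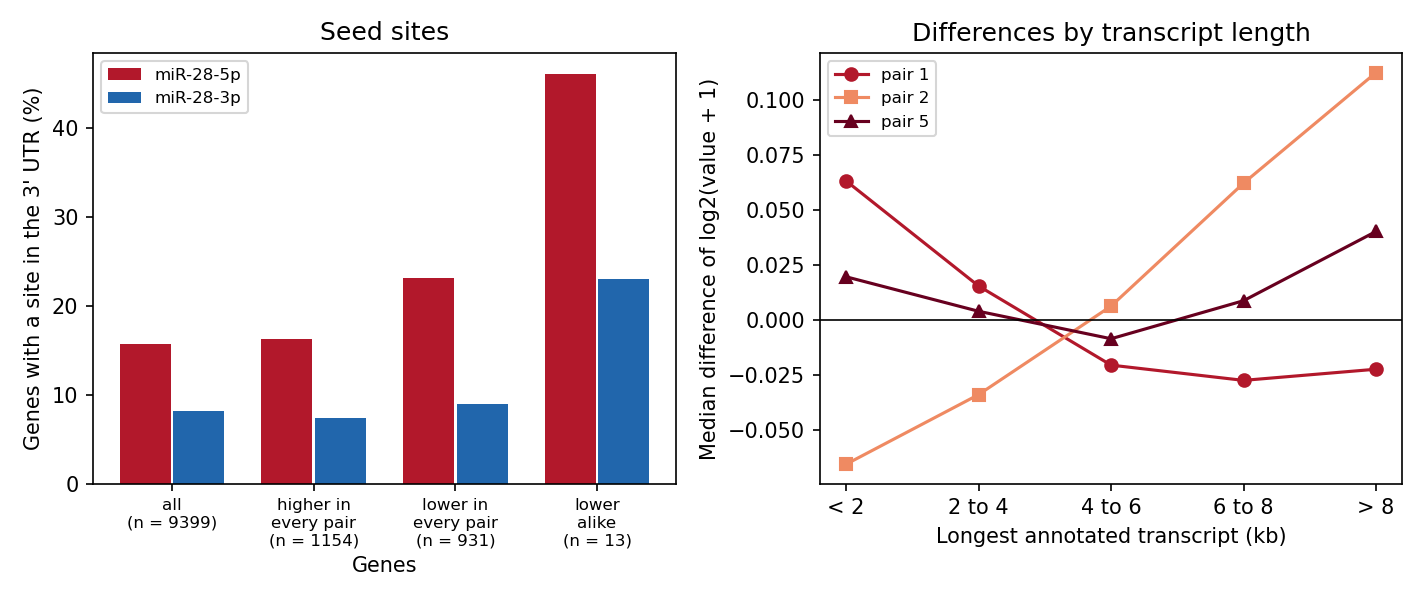
Left, percentage of genes with a site of 7 letters of either arm in the longest 3′ UTR, for all genes and for genes by their direction in pairs 1, 2 and 5, with the number of genes under each bar. Right, median difference of log2(value + 1) by the length of the longest transcript, for each of the 3 pairs, where pairs 1 and 2 run in opposite directions.

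Messengers reported elsewhere as miR-28 targets were read as a group. Of 11 measured, 0 passed the test, 7 were lower in every pair, beside 11.9% of all genes, and 1 was higher in every pair, beside 11.1%. Their median log2 difference was -0.19, and 9 of 11 lay below 0. Besides NFE2L2, RAP1B, a small GTPase, measured 371, 361 and 401 CPM in scramble and 319, 331 and 324 CPM in miR-28 libraries, without overlap, and its limma adjusted p was 0.785. TEX261, a membrane protein of the secretory pathway, had pair differences of -0.28, -0.01 and -0.30, and the transcriptional repressor E2F6 of -0.10, -0.19 and -0.29. N4BP1, an RNA-degrading protein of the immune response, had differences of -0.04, -0.36 and -0.25. MAD2L1, of the spindle checkpoint, and the kinase NME1 had mixed signs, and OTUB1, a deubiquitinase, was higher in every pair by a mean of 0.05. Their 5p windows are shown because several share letters beyond the site with that of ATPAF1. They lie at chr2:70986024-70986053, chr2:11445373-11445402 and chr16:48538811-48538840 (minus strand) for TEX261, E2F6 and N4BP1, and at chr11:63998357-63998386 (plus strand) for OTUB1.
TEX261 5p: agtagactgtaAGCTCCTtgagggcaagga
E2F6 5p: attagactgtgAGCTCCTtgagggactttg
N4BP1 5p: tctagactgtgAGCTCCTcgtgggcaggga
OTUB1 5p: cccaggctgtgAGCTCCTtgggggcaggcc

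Over the site and the 8 bases before it, the letters common to ATPAF1, TEX261 and E2F6 are AGACTGTNAGCTCCT, a motif whose extent was picked after these windows and values were seen. Their windows also share letters outside it, which were not searched. It was found in the 3′ UTR of 11 of the genes with a mean of 5 or more. Of the 8 genes that did not define it, 1 (N4BP1) was lower in every one of pairs 1, 2 and 5. That share lies near the 11.9% of all 12725 genes. In every one of pairs 3, 4 and 6, 5 of the 8 were lower, beside 20.8% of the 10083 genes with that mean. Of 1464 genes with a 5p site but not this motif, 22.7% were. N4BP1 is 1 of the 5, and its window and values had been seen when the motif was picked. G3BP1 and SLC16A7, also among the 5, have 3′ UTRs of 8694 and 10176 bases. The motif was taken from these data, so nothing is read from this count. G3BP1, a stress granule protein with 2 copies, differed by -0.36, 0.10 and -0.25 in pairs 1, 2 and 5.

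Among genes of the B cell programme and of growth no call was made. Of 27 measured germinal centre genes, 32 of B cell receptor signalling, 45 of mitosis and 42 of DNA replication, 0 passed the test. The median log2 difference of the mitosis genes was 0.03 in pairs 1, 2 and 5 and 0.50 in pairs 3, 4 and 6, and that of the DNA replication genes was 0.02 and 0.44. CXCR5, the receptor that guides B cells to follicles, had differences of 0.21, 0.21 and 0.60, and DICER1, which cuts microRNA hairpins, of 0.00, 0.42 and 0.27. Of 24 genes of cholesterol synthesis and uptake, 9 were higher in every pair, beside 11.1% of all genes. Of the 24, 21 lay above 0, as did 63 of 74 cytosolic ribosomal protein genes. The share of all genes above 0 was not counted, so nothing is read from the 21. The median log2 difference of the cholesterol genes was 0.08 in pairs 1, 2 and 5 and -0.26 in pairs 3, 4 and 6. By pair it was 0.16, -0.01 and 0.05 in pairs 1, 2 and 5, so pair 2 did not share it. HMGCS1, an early enzyme of that route, measured 439, 454 and 724 CPM in scramble and 517, 523 and 750 CPM in miR-28 libraries, with overlapping groups and a limma adjusted p of 1.00.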

How the data were processed

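RNA of 6 libraries from sorted Ramos cells was compared. Per the submitters' processing notes, reads were handled with RSEM 1.2.3, cutadapt and CASAVA 1.8.2 on GRCh38, with the role of each not stated. The annotation and the filter on low genes they used are not stated in the sources. The authors deposited 1 signal value per gene and library. In each library 100% of values were whole multiples of 1 step within 0.01 reads, and the factors in them equalled TMM factors, so the values are CPM scaled by TMM. The step was read from the smallest gap between values; in both libraries of pair 2 the lowest value above 0 stood for 2 reads, so no single read shows it directly there. Read numbers printed for MIR28, library totals and shares of reads rest on this recovery. The value of 3 reads was 0.0830 to 0.155 CPM in these 6 libraries, and intervals and floors cover counting error only. No strand setting is stated, so counts of overlapping, antisense or duplicated genes are uncertain.

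Limma 3.58.1 (trend, R 4.3.3) was fitted to log2(value + 1), which understates changes of low genes, with the pair as a block and Benjamini-Hochberg adjustment over 12725 genes. edgeR 4.0.16 and DESeq2 1.42.0 were run on the recovered reads as alternatives, and the fits were tested on simulated data. The deviations of paired libraries from their group means correlated by 0.578, 0.548 and 0.715, and the labels name the pairs. Positions, lengths and 3′ UTRs came from GENCODE 29 on GRCh38, which held 12595 of the genes; this may not be the authors' release. Named genes were the 2 markers, MIR28 and LPP, measured reported targets, called genes, the alike genes with the largest smallest difference, and up to 2 per direction of each list by unadjusted p; other genes of the lists and sequence windows were added after their values were seen. The pairs, genes and lists were chosen with earlier results of these data known.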

Additional observations from a re-analysis of the deposited data

Results flagged for a closer look

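Some genes had 1 sign in each of pairs 1, 2 and 5 and the opposite sign in each of pairs 3, 4 and 6; the difference was not tested. Over all genes with a mean of 5 or more, 269 (2.67%) were higher in the first 3 pairs and lower in the others, and 194 (1.92%) the reverse. Among 121 named genes 11 did so. Many named genes were chosen by their differences or p-values in pairs 1, 2 and 5, which favours 1 sign there. The 11 are therefore not comparable with the shares of all genes. In pairs 1, 2 and 5 the mean log2 difference was -0.67 for SLX1B, -0.32 for DERL3, -0.12 for HLA-DOA, a chaperone of antigen presentation, and -0.11 for PRIM1, a primase subunit. It was 0.16 for HMGCS1 and 0.17 for MSMO1, enzymes of cholesterol synthesis, 0.17 for the immediate early factor FOSB and 0.16 for BIRC3, an inhibitor of apoptosis. It was 0.13 for the proteasome subunit PSMB5, 0.11 for the glycolytic enzyme PGK1 and 0.077 for MAFK, a partner of NRF2. In pairs 3, 4 and 6 SLX1B measured 0.70, DERL3 0.76, PRIM1 0.84, HMGCS1 -0.66 and MSMO1 -0.72.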

How the results depend on the processing

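The paired limma fit called 1 gene. DESeq2 with the replicate block called 27, of which 20 were lower and 9 were mitochondrially encoded; the fits with no replicate block, without and with library batch, and the fit over all 12 libraries with the block called 0, with 125, 232 and 143 genes at an unadjusted p under 0.05; a pseudocount of 0.1 called 2. Leaving out 1 pair called 4 to 131 genes (131 without pair 1, 35 without pair 2, 4 without pair 5), each time from 2 pairs. The other 6 settings, edgeR among them, called 1. SPCS3 lost its call in the 3 fits that called 0, with adjusted p of 0.356, 0.512 and 0.106, and over the other alternatives its adjusted p was 1.56e-27 to 0.0189. NFE2L2 had an adjusted p of 7.51e-06 in DESeq2, and passed without pair 1 or pair 2. The counts of genes alike, 1 higher and 14 lower, were 2 and 28 at 1.2-fold and 0 and 1 at 1.5-fold; 2 higher with a pseudocount of 0.1, 4 lower with a pseudocount of 5; 5 and 34 with a mean of 1 or more, and 6 lower with a mean of 20 or more. Leaving out 1 pair gave 8 to 45 higher and 39 to 75 lower. In pairs 3, 4 and 6 limma called 0 genes, and 0 to 79 with 1 pair left out (79 without pair 3). Scaling moved the median of all genes by less than 0.01. With 3 pairs and few residual degrees of freedom, small differences of genes with low values could not be resolved.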
